A study of Mus musculus with 9 samples.

Results

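The genes described here are Mdm2, Cdkn1a, Ccng1, Bbc3, Phlda3, Trp53inp1 and Zmat3, which p53 switches on, the Cdkn2a and Cdkn2b inhibitors of cyclin-dependent kinases, and Trp53, which encodes p53. The 10 genes were chosen by name, and 9 of them were measured by 1 probe set each that names no other gene, out of 22180 genes with such a probe set. Trp53 itself was not analysed here. All 9 measured genes lay above the filter on low values and belong to the 17478 genes tested. RNA came from frozen mammary tissue of 9 female FVB mice, 1 Affymetrix Mouse Gene 2.0 ST array per mouse, with 3 arrays in each of 3 groups. Metastatic tumours and non-metastatic tumours came from MMTV-Wnt1 transgenic mice (genotype Wnt1+/-), in which the promoter of mouse mammary tumour virus drives the secreted growth signal Wnt1 mainly in mammary epithelium, and were collected when they measured 20 mm. Normal glands came from littermates without the transgene (Wild-type Wnt1). All mice of the 3 groups drank a 6% sucrose solution that held doxycycline at 200 ug/ml. Mice with metastatic tumours were 281 to 300 days old at collection and mice with non-metastatic tumours 222 to 354 days, while the mice with normal glands were 533 to 556 days old, so that age and tumour status cannot be told apart in any comparison with normal gland.

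The p53 protein is a transcription factor that is stabilised by DNA damage and by oncogene activity. It switches on genes that halt the cell cycle, start cell death or repair DNA, and also Mdm2, the ubiquitin ligase that marks p53 for destruction, which closes a feedback loop. The Cdkn2a locus encodes 2 unrelated proteins from separate first exons: p16Ink4a, which holds back Cdk4 and Cdk6, and p19Arf, which binds Mdm2 and so releases p53. Its neighbour Cdkn2b encodes p15Ink4b, a further inhibitor of Cdk4 and Cdk6. In mouse mammary tumours driven by Wnt1, loss of p53 is known to speed tumour growth.

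The start regions of Cdkn1a and Ccng1 are shown because each holds a match to the DNA element that p53 binds, and those of Cdkn2a and Cdkn2b because these genes lie side by side and had the most similar profiles over the arrays of any pair of the 9 genes. RefSeq windows of 250 bases before to 50 bases after a transcription start, on build GRCm38.p6, were given for 8 of the 10 genes, 12 windows in all. The p53 response element was searched as its consensus of 20 bases, a pair of 10-base units without a spacer that reads the same on both strands, with at most 1 mismatch. Of 32851 windows in the table, 29 (0.0883%) held it, and 2 of the 12 windows did, 1 of Cdkn1a and 1 of Ccng1. Zmat3 and Trp53inp1 are named here without a window. A match describes the letters only. Capitals mark the p53 element in the windows of Cdkn1a (chr17:29090729-29091028, plus strand, around the upstream of its 2 starts, which lie 2790 bases apart) and of Ccng1 (chr11:40755237-40755536, minus strand). The element began 51 bases before the upstream start of Cdkn1a and 195 bases before the start of Ccng1, each with 1 mismatch.
Cdkn1a, upstream start: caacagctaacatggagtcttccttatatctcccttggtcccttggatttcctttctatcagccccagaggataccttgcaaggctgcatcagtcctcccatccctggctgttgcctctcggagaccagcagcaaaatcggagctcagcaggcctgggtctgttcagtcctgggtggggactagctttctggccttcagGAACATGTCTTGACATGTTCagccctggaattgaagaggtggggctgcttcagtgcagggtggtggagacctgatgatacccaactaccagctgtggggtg
Ccng1: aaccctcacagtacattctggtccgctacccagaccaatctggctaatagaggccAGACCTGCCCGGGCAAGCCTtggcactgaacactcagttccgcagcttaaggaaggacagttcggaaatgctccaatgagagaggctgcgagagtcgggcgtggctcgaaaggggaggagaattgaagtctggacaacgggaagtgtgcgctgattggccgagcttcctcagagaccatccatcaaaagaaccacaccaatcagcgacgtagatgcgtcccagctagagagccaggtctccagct

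The Cdkn2 windows held no match to the p53 element. Capitals there mark a site of E2F factors, searched as TTCCCGC on both strands. It was found in 4.6% of all windows and in 2 of the 12, 1 of Cdkn2a and 1 of Bbc3. Both motifs were chosen with these sequences in view. The upstream start of Cdkn2a, from which p19Arf is made (chr4:89294570-89294869, minus strand), held it once, 98 bases before the start. The downstream start, from which p16Ink4a is made (chr4:89282143-89282442, minus strand), lies 12427 bases away and had no match, nor had Cdkn2b (chr4:89310983-89311282, minus strand), whose start lies 16413 bases from the upstream start of Cdkn2a. The sources used here do not say which of the Cdkn2a transcripts its single probe set reads, so the value of Cdkn2a may come from either product.
Cdkn2a, upstream start: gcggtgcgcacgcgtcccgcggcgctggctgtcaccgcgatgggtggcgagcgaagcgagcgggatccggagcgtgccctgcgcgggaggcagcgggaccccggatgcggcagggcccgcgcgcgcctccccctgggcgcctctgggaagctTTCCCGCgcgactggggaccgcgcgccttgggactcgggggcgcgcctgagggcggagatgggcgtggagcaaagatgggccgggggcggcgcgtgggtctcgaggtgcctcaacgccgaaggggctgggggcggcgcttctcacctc
Cdkn2a, downstream start: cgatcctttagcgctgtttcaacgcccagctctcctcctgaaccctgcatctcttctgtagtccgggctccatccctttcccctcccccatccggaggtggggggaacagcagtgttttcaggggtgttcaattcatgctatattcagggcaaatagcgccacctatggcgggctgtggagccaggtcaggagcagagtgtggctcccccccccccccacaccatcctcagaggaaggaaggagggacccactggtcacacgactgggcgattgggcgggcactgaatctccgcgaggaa
Cdkn2b: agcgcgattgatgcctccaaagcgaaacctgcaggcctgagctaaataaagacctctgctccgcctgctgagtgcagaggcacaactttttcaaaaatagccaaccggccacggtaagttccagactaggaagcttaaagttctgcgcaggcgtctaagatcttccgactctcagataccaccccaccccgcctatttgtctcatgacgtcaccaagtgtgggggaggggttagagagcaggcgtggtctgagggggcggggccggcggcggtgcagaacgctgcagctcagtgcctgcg

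Values are log2 RMA values as deposited, so a difference of 1 is a doubling, and the level of one gene cannot be set against that of another. Array medians lay between 5.80 and 5.94. Wnt1 averaged 11.75 ± 0.48 in metastatic tumours and 12.02 ± 0.33 in non-metastatic tumours, against 5.59 ± 0.13 in normal glands (SD, n = 3 each). Of the normal glands, gland 2 stood apart, with a marker score of 3.52 for epidermis and 3.30 for skeletal muscle, where the other normal glands scored -0.78 and -0.62 for the first and -0.82 and -0.39 for the second (for a score, each gene was centred on its own 9-array mean and the genes of a list were averaged). Of 7 epithelial markers, 6 lay above the array median on all 9 arrays. Their score was 0.01 to 0.57 in metastatic tumours, 0.19 to 0.52 in non-metastatic tumours and -1.38 to -0.07 in normal glands, and that of 7 adipocyte markers was -2.25 to -1.43 in metastatic tumours, -2.47 to -0.73 in non-metastatic tumours and 2.83 to 3.94 in normal glands. In such tissue pieces, fewer cells of a type and less RNA per cell cannot be told apart.

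Between metastatic and non-metastatic tumours, none of the 9 genes differed beyond the spread between arrays. The differences ran from -0.18 for Zmat3 to 0.36 for Cdkn1a on the log2 scale, and 7 of the 9 were positive. With limma and Benjamini-Hochberg adjustment over all genes tested, 0 of 9 passed an adjusted p under 0.05 and 0 of 9 had an unadjusted p under 0.05, where 0.00572% and 5.07% of all genes did. For 0 of 9 genes were the groups without overlap, against 10.3% of all genes. The median difference of the 9 genes was 0.12, beside -0.02 over all genes. The intervals leave room for sizeable differences in the more variable genes: the 95% interval was -1.15 to 1.88 for Cdkn1a and -1.02 to 0.67 for Zmat3, while it was -0.22 to 0.33 for Mdm2 and -0.21 to 0.19 for Bbc3.

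Metastatic tumours were also compared with normal gland, to ask how the genes stand in the tumours against the tissue of origin. The highest difference was that of Cdkn1a at 0.88 and the lowest that of Phlda3 at -0.81, with Cdkn2b at 0.72 and Cdkn2a at 0.64. None passed the adjusted threshold (limma, 0 of 9, where 13.3% of all genes passed), and 2 of 9, Cdkn2a and Cdkn2b, had an unadjusted p under 0.05, where 30.5% of all genes did. In 3 of 9 genes, Cdkn2a, Cdkn2b and Trp53inp1, all metastatic tumours lay above all normal glands. Groups without overlap were found in 38.5% of all genes, so that this share is near the background. The median difference was 0.28, beside 0.04 over all genes.

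Non-metastatic tumours against normal gland also gave no call among the 9 genes. Phlda3 had the lowest difference, -1.07, and the only unadjusted p under 0.05 (1 of 9 genes, against 34.4% of all genes), with an adjusted p of 0.0988 in limma. Cdkn2b at 0.53, Cdkn2a at 0.52 and Cdkn1a at 0.51 had the highest differences. None of the 9 passed the adjusted threshold, where 18.8% of all genes did. All non-metastatic tumours lay above all normal glands for 2 of 9 genes, Cdkn2a and Cdkn2b, against 36.2% of all genes without overlap. The median difference was 0.26, beside 0.05 over all genes. Both comparisons with normal gland share the same 3 normal arrays.

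**Figure D1:**
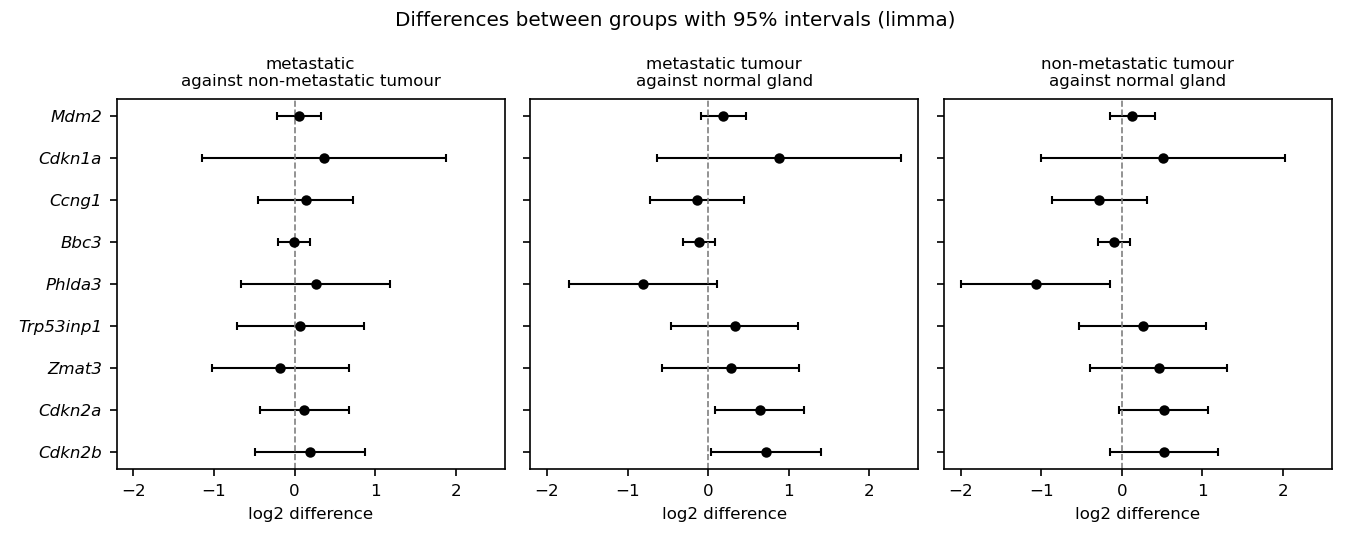
Log2 difference of each gene (points) with its 95% interval from limma (bars, moderated SE, n = 3 arrays per group) in the 3 comparisons, genes in rows. The interval of Phlda3 lies below 0 in non-metastatic tumours against normal gland and those of Cdkn2a and Cdkn2b above 0 in metastatic tumours against normal gland, and all 9 intervals cross 0 between the tumour groups.

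Mdm2 (probe set 17245248), the ligase that limits p53 and is itself switched on by it, was among the steadiest of the 9 genes. It stood at 8.75, 9.08 and 9.04 in metastatic tumours 1, 2 and 3, at 8.85, 8.93 and 8.93 in non-metastatic tumours 1, 2 and 3, and at 8.90, 8.77 and 8.63 in normal glands 1, 2 and 3. The groups overlapped throughout, and metastatic tumour 1 lay below every other tumour. The difference was 0.06 (95% interval -0.22 to 0.33) between metastatic and non-metastatic tumours, 0.19 (-0.09 to 0.47) between metastatic tumours and normal gland and 0.13 (-0.14 to 0.41) between non-metastatic tumours and normal gland. Over the 6 tumours its values spanned 0.33, less than in most genes: 23.6% of all genes tested spanned less.

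Cdkn1a (probe set 17335467), which encodes p21, the inhibitor of Cdk2 through which p53 halts the cell cycle, varied most among tumours of the 9 genes. It stood at 11.08, 11.00 and 8.94 in metastatic tumours 1, 2 and 3, at 9.80, 9.73 and 10.40 in non-metastatic tumours 1, 2 and 3, and at 9.54, 10.42 and 8.43 in normal glands 1, 2 and 3. Metastatic tumours thus held both the highest and the lowest tumour values, 4.41-fold apart, and 94.9% of all genes spanned less over the 6 tumours. Normal gland 2, the gland with high epidermal and muscle scores, was the highest normal gland and lay above all 3 non-metastatic tumours. Its value of 10.42 was barely above the 10.40 of non-metastatic tumour 3. Without that gland the difference between metastatic tumours and normal gland was 1.36, and between non-metastatic tumours and normal gland 0.99, against 0.88 and 0.51 with it, and neither passed the threshold (limma adjusted p = 0.276 and 0.391). Without normal gland 3, the lowest, they were 0.36 and 0.00, and without metastatic tumour 3 the first was 1.58, so that single arrays set the size of these differences. The part of the other tissues in that gland's value was not tested.

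Ccng1 (probe set 17261865) encodes cyclin G1, which recruits a phosphatase to Mdm2. Its values were 10.91, 11.44 and 10.66 in metastatic tumours 1, 2 and 3 and 10.49, 10.78 and 11.33 in non-metastatic tumours 1, 2 and 3, against 11.22, 11.22 and 10.98 in normal glands 1, 2 and 3. Metastatic tumour 2 and non-metastatic tumour 3 lay above all normal glands, and the other 4 tumours below all of them. The tumour group means of 11.01 ± 0.40 (metastatic) and 10.87 ± 0.43 (non-metastatic) therefore differed from the normal mean of 11.14 ± 0.14 (SD, n = 3 each) by less than the spread among tumours, with limma adjusted p of 0.76 and 0.488.

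Of the genes tied to cell death, Bbc3 (probe set 17474097), which encodes the BH3-only protein Puma, was almost flat. It stood at 6.07, 6.07 and 6.01 in metastatic tumours 1, 2 and 3 and 6.04, 6.05 and 6.08 in non-metastatic tumours 1, 2 and 3, against 6.25, 6.15 and 6.07 in normal glands 1, 2 and 3. Normal glands 1 and 2 lay above all tumours. Its span of 0.07 over the 6 tumours was smaller than that of nearly every gene (0.6% of all genes spanned less), and its values lay close to the array medians, with no detection call in the sources used here to say whether the probe set was above background.

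Phlda3 (probe set 17217619), whose product holds back the kinase Akt, had the lowest differences from normal gland of the 9 genes. It stood at 8.20, 8.90 and 7.92 in metastatic tumours 1, 2 and 3, at 7.47, 7.92 and 8.84 in non-metastatic tumours 1, 2 and 3, and at 9.37, 9.43 and 8.64 in normal glands 1, 2 and 3. Normal gland 3 overlapped with metastatic tumour 2 and non-metastatic tumour 3, while the other 4 tumours lay below all normal glands. The difference from normal gland was -0.81 in metastatic tumours (SE 0.40, limma adjusted p = 0.213) and -1.07 in non-metastatic tumours (SE 0.40, adjusted p = 0.0988). Without non-metastatic tumour 3 the difference of non-metastatic tumours became -1.45 and passed the threshold (adjusted p = 0.0376). The score of 7 endothelial markers was likewise lower in tumours, at -0.46 to 0.29 in metastatic ones and -0.95 to 0.04 in non-metastatic ones, against 0.65 to 0.93 in normal glands, as was the adipocyte score, and the part of either in the values of Phlda3 was not tested.

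Trp53inp1 (probe set 17411751), a stress protein that takes part in p53 signalling and autophagy, was high in single tumours. It stood at 9.31, 9.74 and 9.21 in metastatic tumours 1, 2 and 3 and at 8.88, 8.93 and 10.23 in non-metastatic tumours 1, 2 and 3, against 9.20, 9.10 and 8.96 in normal glands 1, 2 and 3. All metastatic tumours lay above all normal glands, though tumour 3 by only the last printed digit over gland 1, whereas non-metastatic tumours held both the highest and the lowest values of all arrays. The difference between non-metastatic tumours and normal gland, 0.26 (95% interval -0.53 to 1.05), was -0.18 without non-metastatic tumour 3.

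Zmat3 (probe set 17404585), an RNA-binding zinc finger protein and a direct p53 target, was highest in 1 tumour of each tumour group. It stood at 7.44, 8.16 and 6.99 in metastatic tumours 1, 2 and 3, at 7.35, 7.31 and 8.46 in non-metastatic tumours 1, 2 and 3, and at 7.13, 7.20 and 7.41 in normal glands 1, 2 and 3. Non-metastatic tumour 3 and metastatic tumour 2 stood above all other arrays by more than the whole range of the normal glands, and the remaining tumours lay among or near the normal glands. The span over the 6 tumours was 2.77-fold. The difference between the tumour groups, -0.18 (95% interval -1.02 to 0.67), became 0.20 without non-metastatic tumour 3, and that between non-metastatic tumours and normal gland was 0.46, or 0.08 without that tumour.

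Cdkn2a (probe set 17427147) stood at 6.98, 7.42 and 6.57 in metastatic tumours 1, 2 and 3 and at 6.67, 6.67 and 7.27 in non-metastatic tumours 1, 2 and 3, against 6.38, 6.24 and 6.44 in normal glands 1, 2 and 3. Every tumour lay above every normal gland, and metastatic tumour 2 and non-metastatic tumour 3 lay highest. Groups without overlap with normal gland were common, in 38.5% of all genes for metastatic and 36.2% for non-metastatic tumours. The same holds for the separation of Cdkn2b below. The difference from normal gland was 0.64 in metastatic tumours (SE 0.24, limma adjusted p = 0.115), a fold of 1.56, and 0.52 in non-metastatic tumours (SE 0.24, adjusted p = 0.165), a fold of 1.43. Neither passed the adjusted threshold. Without metastatic tumour 2 the first was 0.42, and without non-metastatic tumour 3 the second was 0.32.

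Cdkn2b (probe set 17427155) stood at 8.39, 8.41 and 7.54 in metastatic tumours 1, 2 and 3 and at 7.72, 7.56 and 8.48 in non-metastatic tumours 1, 2 and 3, against 7.39, 7.48 and 7.31 in normal glands 1, 2 and 3. Again every tumour lay above every normal gland, with metastatic tumour 3 and non-metastatic tumour 2 closest to the glands and metastatic tumours 1 and 2 and non-metastatic tumour 3 farthest above them. The difference from normal gland was 0.72 in metastatic tumours (SE 0.30, limma adjusted p = 0.144) and 0.53 in non-metastatic tumours (SE 0.30, adjusted p = 0.249), and neither passed. Leaving out single arrays gave 0.57 to 1.00 in metastatic tumours and 0.25 to 0.71 in non-metastatic tumours, with 0.25 without non-metastatic tumour 3. For Cdkn2a the SD was 0.43 among metastatic and 0.35 among non-metastatic tumours, against 0.10 among normal glands, and for Cdkn2b it was 0.49 in each tumour group, against 0.09 among normal glands (n = 3 each).

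**Figure D2:**
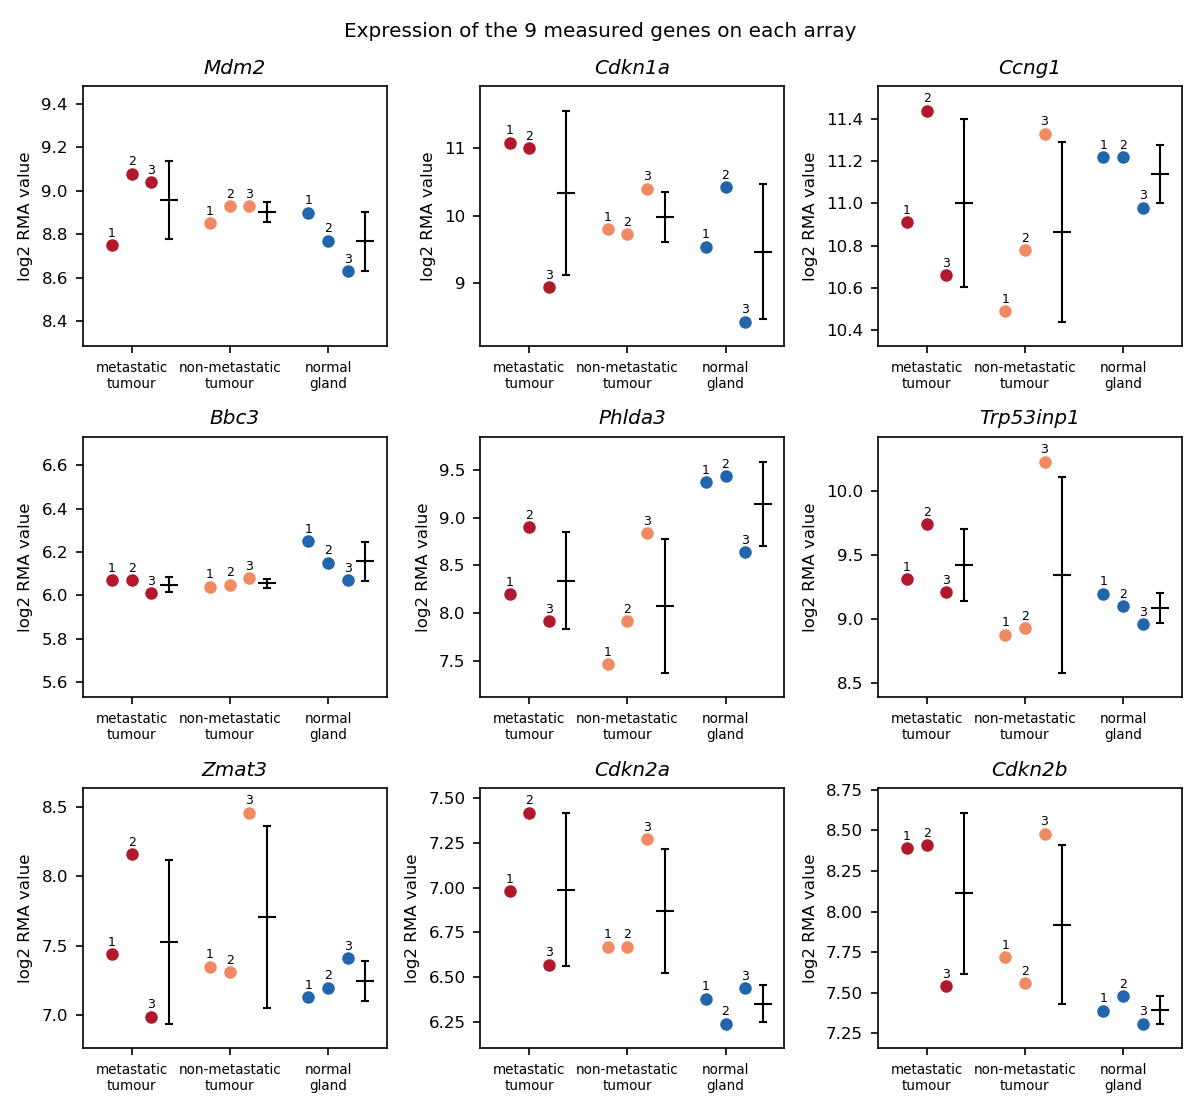
Log2 RMA value of each of the 9 measured genes on each array (points, numbered by replicate), with the group mean and SD (black, n = 3 each), in metastatic tumours, non-metastatic tumours and normal glands; each panel has its own vertical axis. Every tumour lies above every normal gland for Cdkn2a and Cdkn2b, and metastatic tumour 2 and non-metastatic tumour 3 stand high within their groups for Ccng1, Phlda3, Trp53inp1, Zmat3, Cdkn2a and Cdkn2b.

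The median span of the 9 genes over the 6 tumours was 0.95, beside 0.52 over all genes tested. For 6 of the 9 genes, Ccng1, Phlda3, Trp53inp1, Zmat3, Cdkn2a and Cdkn2b, metastatic tumour 2 and non-metastatic tumour 3 were the 2 highest of the 6 tumours, which was so for 9.06% of all genes. This pair of tumours was picked after the values were seen, so the share is a description and no test was made. The lowest tumour was metastatic tumour 3 for 5 genes and non-metastatic tumour 1 for 3 genes. Cdkn1a, Mdm2 and Bbc3 had other orders, with Cdkn1a highest in metastatic tumours 1 and 2.

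The same pair of tumours was highest for 8 of 26 measured genes in 3 further lists of p53 targets, against 9.06% of all genes. The pair had been picked from the values of the 9 genes, and no test was made. Taken singly, non-metastatic tumour 2, outside the pair, was highest for 8 of the 26, non-metastatic tumour 3 for 7 and metastatic tumour 2 for 6. The targets highest in the pair, named after their values were seen, were Plk2, Gtse1, Sesn1, Sesn2, Aen, Apaf1, Eda2r and Polk. Eda2r, a death receptor of the tumour necrosis factor family, reached 7.52 in metastatic tumour 2 and 7.48 in non-metastatic tumour 3, while the other 4 tumours had 5.40 to 6.30, against 5.49 to 5.79 in normal glands. Sesn1, a stress protein that restrains growth signalling, stood at 9.11 and 8.90 in these tumours, and between 7.74 and 8.56 in the other 4, against 8.13 to 9.02 in normal glands.

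Some marker lists also set these tumours apart, that of endothelium most clearly. All 7 endothelial markers measured, among them Pecam1 and Cdh5, were also highest in metastatic tumour 2 and non-metastatic tumour 3 of the 6 tumours, with scores of 0.29 and 0.04 there and -0.95 to -0.45 in the other 4. Of 7 fibroblast markers 4 had this order, with scores of 0.08 and 0.70 there and -2.57 to 0.05 in the other 4 tumours. Of 7 markers of dividing cells 0 had it, and their score was -0.03 in metastatic tumour 2 and 0.90 in non-metastatic tumour 3. The epithelial score was lowest in the same 2 tumours, at 0.01 in metastatic tumour 2 and 0.19 in non-metastatic tumour 3, where the other 4 had 0.31 to 0.57. Not every epithelial marker had this order. Cdh1 was highest of the 6 tumours in non-metastatic tumour 3 (11.73), and Krt14 was lowest in non-metastatic tumour 1 (8.38). Of 8 leukocyte markers 3 were highest in this pair, and of 7 adipocyte markers 1. Of 8 skeletal muscle markers 0 were, with a score of -0.74 in metastatic tumour 2 and 1.15 in non-metastatic tumour 3. The other 4 tumours had muscle scores of -1.1 to 0.62, so that the pair differed in this list. The part of these cells in the values of the 9 genes was not tested.

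**Figure D3:**
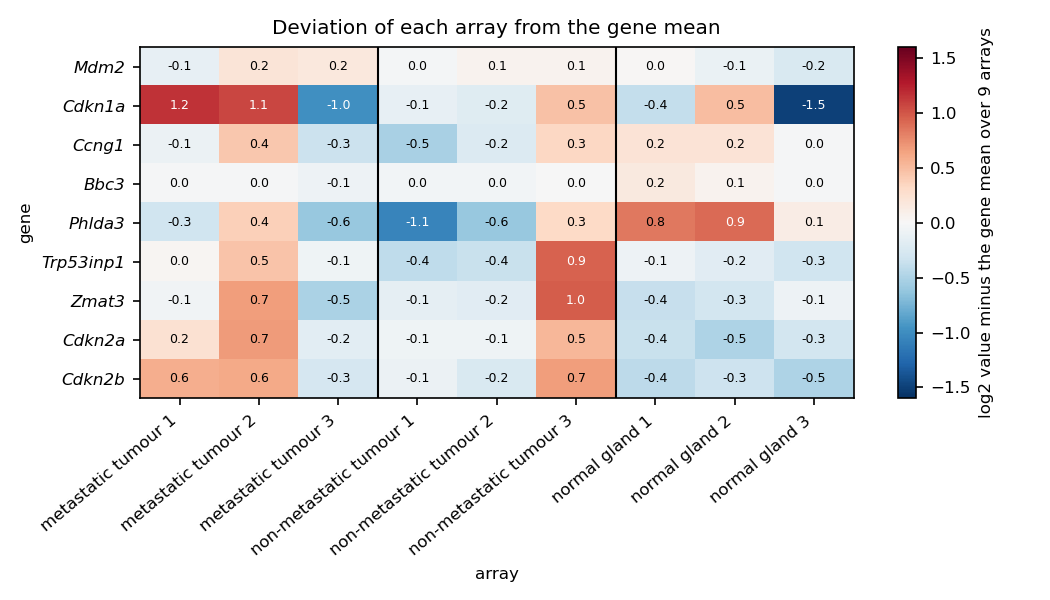
Log2 value relative to each gene's own 9-array mean, genes in rows and arrays in columns, with metastatic tumours left, non-metastatic tumours in the middle and normal glands right; red is above and blue below the gene mean. Metastatic tumour 2 and non-metastatic tumour 3 are above the mean in the rows of Ccng1, Phlda3, Trp53inp1, Zmat3, Cdkn2a and Cdkn2b, while Phlda3 is also high in normal glands 1 and 2.

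Similarity of the 9 genes over the 9 arrays was described by Pearson's r, without a test, since the points share the split between tumour and normal tissue. Cdkn2a and Cdkn2b were most alike, at r = 0.93, followed by Ccng1 and Phlda3 at 0.88, and by Zmat3 with Cdkn2a and with Trp53inp1 at 0.86 each. Mdm2 reached at most 0.48, with Cdkn2a, and Cdkn1a was closest to Cdkn2b at 0.79. Not all genes were alike: r between Cdkn2b and Phlda3 was -0.02.

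Among all genes tested, those nearest to each of the 9 over the 9 arrays were taken, 2 for each, by the highest r. Notum, a secreted enzyme that inactivates Wnt proteins, was nearest to Cdkn2b (r = 0.981), at 7.95, 7.65 and 5.94 in metastatic tumours 1, 2 and 3 and 6.48, 6.42 and 7.81 in non-metastatic tumours 1, 2 and 3, against 5.49, 5.91 and 5.43 in normal glands. Phc1, a Polycomb protein, came after Mbtps1, a protease of the Golgi, for Cdkn2a (r = 0.965 and 0.969). Calcrl, a receptor of endothelial cells, was nearest to Phlda3 (r = 0.988), followed by Slc12a4, a transporter of potassium and chloride (0.976). Ptpn13, a tyrosine phosphatase, and Anxa1, an annexin, were nearest to Cdkn1a (0.959 and 0.917), and Pigyl came after Notum for Cdkn2b (0.978). For Trp53inp1 the nearest were Unc79 and Cpt1c (r = 0.979 and 0.977), for Zmat3 Cox6b2 and Map7d2 (0.961 and 0.945), and for Ccng1 Jade2 and Dpysl2 (0.936 and 0.932). Mdm2 was nearest to Kcnt1 and Ndfip1 (0.957 and 0.938), and Bbc3 to Hnf4aos and Lrrc36 (0.977 and 0.963).

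Other targets of p53 were taken as 3 lists. Against normal gland, 13.3% of all genes passed in metastatic and 18.8% in non-metastatic tumours, and most targets in these lists did not pass. Of 9 measured targets in arrest and stress signalling, 2 rose in metastatic tumours and the same 2 in non-metastatic tumours: Plk2, a polo-like kinase, by 1.42 (SE 0.26, limma adjusted p = 0.0152) and 1.19 (SE 0.26, adjusted p = 0.0188), and Ddit4, an inhibitor of mTOR signalling, by 1.17 and 1.59 (SE 0.30 each, adjusted p = 0.0394 and 0.0127). Shares of 2 in 9 are not far from those of all genes, and nothing particular to the list follows from them. Plk2 stood at 10.34, 10.95 and 10.76 in metastatic tumours and 10.17, 10.26 and 10.95 in non-metastatic tumours, against 9.57, 9.25 and 8.99 in normal glands, so that both tumour groups lay above the normal glands. The list's median difference was 0.13 in metastatic and -0.02 in non-metastatic tumours, beside 0.04 and 0.05 over all genes. The call of Plk2 was lost without metastatic tumour 3 in the first comparison and without normal gland 2 in the second (adjusted p = 0.0572 and 0.0564), and that of Ddit4 in metastatic tumours without any of 6 arrays, with adjusted p up to 0.125. Without normal gland 2 the list had 1 call in each comparison. That setting also called fewer of all 17478 genes, 356 higher and 505 lower in metastatic tumours and 809 and 708 in non-metastatic tumours.

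Of 10 measured targets in apoptosis, Tnfrsf10b, a death receptor, and Bid, a BH3-only protein, rose in both tumour groups, and Fas, another death receptor, fell in both. Tnfrsf10b rose by 0.82 (SE 0.17) in metastatic and 0.95 (SE 0.17) in non-metastatic tumours, Bid by 0.80 (SE 0.18) and 1.21 (SE 0.18), and Fas changed by -0.84 and -0.88 (SE 0.20 each). The other 7 did not pass. The list's median difference was 0.36 in each tumour group, beside 0.04 and 0.05 over all genes, and its 3 of 10 calls stand beside the 13.3% and 18.8% of all genes called. Of 7 measured targets in DNA repair and metabolism, 1 rose in each group, Polh, a polymerase that copies past damaged bases, by 0.69 and 0.80 (SE 0.15 each), a share of 1 in 7 near that of all genes, with a median difference of 0.13 and 0.21. The calls of Tnfrsf10b, Bid and Polh in non-metastatic tumours passed without each array in turn, that of Fas there was lost without normal gland 1 or 2 (adjusted p = 0.0746 and 0.075), and all those of apoptosis and repair genes in metastatic tumours were lost without normal gland 1 or 2 or any metastatic tumour, with adjusted p up to 0.108. Without normal gland 2 the apoptosis list had 1 call in metastatic tumours, which was none of these 3 but Perp. Perp then differed by 2.29 (limma adjusted p = 0.0324), against 1.46 and 0.191 with that gland. The apoptosis list kept 2 calls in non-metastatic tumours, and the repair list had 0 and 1. Fewer of all genes were also called without that gland, 356 higher and 505 lower in metastatic and 809 and 708 in non-metastatic tumours. The 8 leukocyte markers had scores of -0.33 to -0.04 in metastatic and -0.60 to 0.09 in non-metastatic tumours, against 0.16 to 0.72 in normal glands, and their part in the lower Fas values was not tested.

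Of 13 regulators and relatives of p53, 1 rose and 1 fell in metastatic tumours and 3 rose and 1 fell in non-metastatic tumours. With 13.3% and 18.8% of all genes called, 2 of 13 is near the background, and 4 of 13 is to be read against it too. Rchy1, a ubiquitin ligase of p53 and itself a target, rose by 0.64 and 0.62 (SE 0.12 each). Hipk2, a kinase that activates p53, changed by -0.97 and -1.17 (SE 0.20 each). Chek1, a kinase of the DNA damage response, and Trp53bp1, a repair protein at broken DNA, rose in non-metastatic tumours by 1.22 and 0.46. Metastatic tumours, where these 2 did not pass, differed from non-metastatic tumours by -0.33 and -0.12 (limma adjusted p = 0.912 and 0.918). The median difference was 0.29 in metastatic and 0.38 in non-metastatic tumours, beside 0.04 and 0.05 over all genes. Without normal gland 2, fewer of all genes were called, as given above. The call of Hipk2 in metastatic tumours was lost in that setting (limma adjusted p = 0.0612). So were those of Chek1 and Trp53bp1 in non-metastatic tumours (0.133 and 0.134). Those of Chek1 and Trp53bp1 were each lost without 7 of the 9 arrays, that of Hipk2 in metastatic tumours also without normal gland 1 or metastatic tumour 1 or 2, and that of Rchy1 there without metastatic tumour 1 or 3, with adjusted p up to 0.0731 for Hipk2 and 0.0623 for Rchy1.

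Of 10 measured cyclins, kinases and retinoblastoma proteins, 4 rose and 1 fell in metastatic tumours, and 5 rose in non-metastatic tumours, where 13.3% and 18.8% of all genes were called. Cdk6, bound by both Cdkn2 inhibitors, rose by 1.16 and 1.04 (SE 0.16 each) and was called without each array in turn in both comparisons. Cdk4 rose by 0.89 and 1.18 (SE 0.23 each), and Cdk2, the kinase bound by p21, by 0.48 and 0.73 (SE 0.12 each). Ccnd1, cyclin D1, rose by 2.07 (SE 0.47) in metastatic tumours, at 11.94, 12.19 and 11.90, against 10.21, 9.27 and 10.34 in normal glands. In non-metastatic tumours its difference was 1.23 and did not pass (limma adjusted p = 0.102). Ccnd3, cyclin D3, changed by -0.54 in metastatic tumours, and Rbl1 and Ccne1 rose by 0.79 and 0.69 in non-metastatic tumours. Each had the same sign in the other tumour group without passing. Ccnd3 differed there by -0.41, Rbl1 by 0.59 and Ccne1 by 0.38 (limma adjusted p = 0.0793, 0.101 and 0.22). Between the tumour groups 0 of the 10 passed, with Ccnd1 at 0.84 (adjusted p = 0.882). The median difference was 0.47 in metastatic and 0.71 in non-metastatic tumours, beside 0.04 and 0.05 over all genes, and the score of dividing-cell markers was -0.03 to 0.91 in metastatic and 0.42 to 0.90 in non-metastatic tumours, against -1.59 to -0.35 in normal glands, whose part was not tested. Without normal gland 2 the count was 1 in metastatic and 4 in non-metastatic tumours. Over all genes that setting called 356 higher and 505 lower in metastatic and 809 and 708 in non-metastatic tumours, fewer than the main fit. In metastatic tumours the calls of Cdk2, Cdk4, Ccnd1 and Ccnd3 were each lost without normal gland 1 or 2 and without at least 2 further arrays (adjusted p up to 0.13), and in non-metastatic tumours those of Rbl1 and Ccne1 without 6 and 7 of the 9 arrays.

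The other CDK inhibitors gave no call in the main limma fit. Settings that gave 1 call in metastatic tumours against normal gland included array weights (6498 of 17478 genes called) and only the groups compared (2057). Leaving out normal gland 3 (2832 of all genes called) or non-metastatic tumour 1 (2110) did so too. Of Cdkn1b, Cdkn1c, Cdkn2c and Cdkn2d, 0 of 4 passed in either comparison with normal gland, and 1 of 4 had an unadjusted p under 0.05 in each (limma). Cdkn2c, p18Ink4c, had differences of -0.95 (95% interval -1.92 to 0.03) in metastatic and -1.37 (-2.34 to -0.39, adjusted p = 0.0581) in non-metastatic tumours. It stood at 8.46, 9.06 and 7.47 in normal glands 1, 2 and 3, the last among the tumour values of 6.62 to 7.62. Cdkn1b, p27, was 0.73 higher in metastatic tumours (0.04 to 1.41, adjusted p = 0.144) and 0.51 higher in non-metastatic tumours (-0.18 to 1.19). Cdkn1c, p57, reached 8.29 in metastatic tumour 2 and 8.21 in non-metastatic tumour 3, while the other 4 tumours had 6.29 to 7.19, against 7.11 to 7.54 in normal glands.

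Of 10 regulators of the Cdkn2a locus, 2 rose in metastatic tumours, and 5 rose and 1 fell in non-metastatic tumours, beside 13.3% and 18.8% of all genes called. The count in metastatic tumours is thus near the background. Ezh2, the methyltransferase of Polycomb complexes that silence the locus, rose by 0.98 and 1.19 (SE 0.23 each), and Dmtf1, an activator of the p19Arf promoter, by 0.38 and 0.43 (SE 0.10 each). In non-metastatic tumours Ets2 rose by 0.71 and Suz12 by 0.69, the first an activator of p16Ink4a and the second a Polycomb subunit. Bmi1, a Polycomb repressor of the locus, rose there by 0.43, and the Polycomb protein Cbx7 changed by -0.41. In metastatic tumours these genes had the same sign without passing. Ets2 differed by 0.48, Suz12 by 0.54, Bmi1 by 0.18 and Cbx7 by -0.35 (limma adjusted p = 0.0898, 0.0536, 0.371 and 0.0848). Between the tumour groups 0 of the 10 regulators passed. The median difference from normal gland was 0.43 in each tumour group, beside 0.04 and 0.05 over all genes. Without normal gland 2 the counts were 0 and 1, the 1 being Ezh2. Calls over all genes also fell in that setting, to 356 higher and 505 lower in metastatic and 809 and 708 in non-metastatic tumours. The call of Ezh2 passed without each array in turn in non-metastatic tumours and was lost without 5 arrays in metastatic tumours (adjusted p up to 0.0969). Those of Dmtf1, Bmi1, Cbx7, Suz12 and Ets2 were each lost without 3 or more single arrays, normal gland 2 among them (adjusted p up to 0.134).

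**Figure D4:**
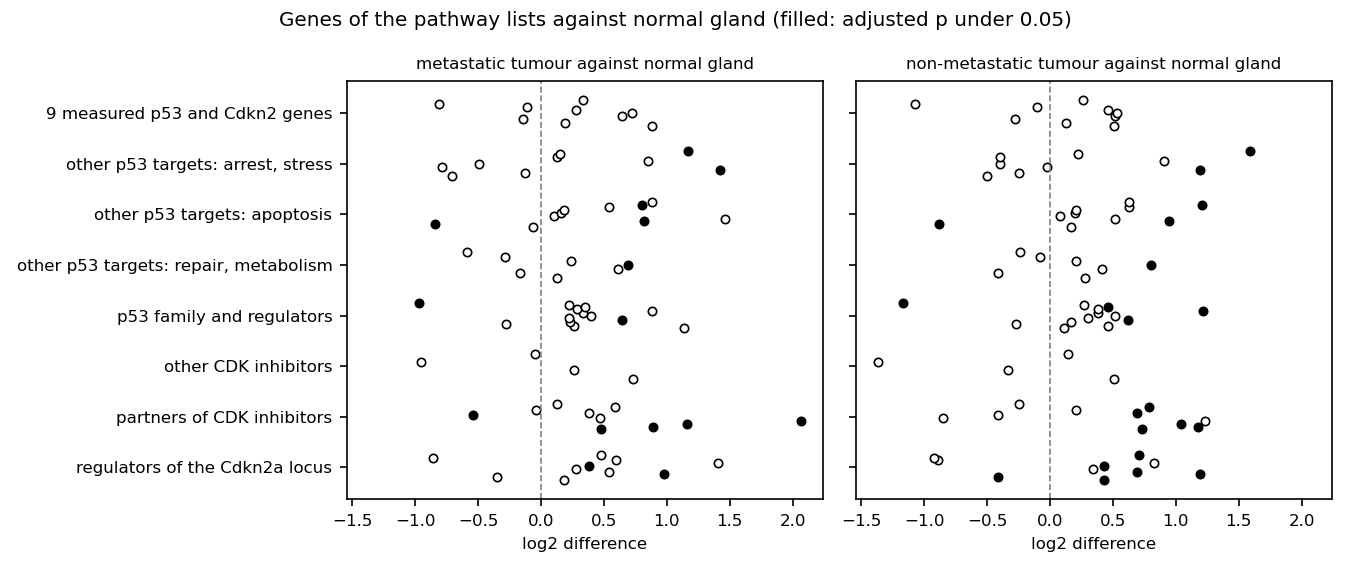
Log2 difference of each gene (points, filled where the limma adjusted p is under 0.05) in metastatic tumours against normal gland (left) and non-metastatic tumours against normal gland (right), for the 9 measured genes (top row) and 7 further lists. No point of the top row is filled, and the filled points of the partner list lie between -0.54 and 2.07.

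Between metastatic and non-metastatic tumours 0 genes of the 7 further lists passed (limma, over all genes). An unadjusted p under 0.05 was found for 3, where 5.07% of all genes had one. These were 1 of 9 targets in arrest and stress signalling, 1 of 10 cyclins, kinases and retinoblastoma proteins and 1 of 10 regulators of the Cdkn2a locus. The other lists had none. Plk3, a stress kinase, differed by -0.78 (95% interval -1.42 to -0.13, adjusted p = 0.882) and lay lower in every metastatic tumour than in every non-metastatic one. These groups were without overlap in 10.3% of all genes, and other genes of the lists had this too. Tbx3, which represses the Cdkn2a locus, differed by 1.49 (0.25 to 2.73), at 8.37, 9.86 and 8.32 in metastatic tumours and 6.77, 6.89 and 8.42 in non-metastatic tumours, so that the groups overlapped. Rbl2, the retinoblastoma-related p130, differed by 0.38 (0.01 to 0.74). Trp63, the p53 relative of basal epithelial cells, differed by 1.03 (-0.52 to 2.59), with non-metastatic tumour 1 at 6.53 and the other 5 tumours between 8.93 and 9.57. Ccnd2 differed by 1.32 (-0.58 to 3.23), and Perp, a p53 target of cell junctions, by 0.94 (-0.63 to 2.51).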

How the data were processed

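Total RNA of 9 mammary tissues was hybridised to Affymetrix Mouse Gene 2.0 ST arrays. The authors deposited log2 values per probe set made with RMA, per the submitters' processing notes, and the version and probe annotation used are not given in the sources used here. RMA fits and normalises all arrays together, so single values depend on the whole set.

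Of 41345 probe sets, 23521 had 1 gene symbol, 1814 had several and 16010 were not listed in the platform annotation. A gene was represented by its probe set of 1 symbol with the highest mean over the 9 arrays. The 17478 genes that exceeded the 30th percentile of an array on 3 or more arrays were fitted with limma 3.58.1 in R 4.3.3, 1 model over 3 groups, with eBayes moderation, 3 contrasts and Benjamini-Hochberg adjustment over all genes tested in each contrast (threshold 0.05). The fit was tested on simulated data.

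The genes and the further lists were chosen with earlier results of these data known. The rule named all members, per list and comparison up to 4 called genes with the largest differences (or up to 2 where none was called), and per member the 2 genes of highest r, without predicted or Rik symbols. Outside it, the genes with the shared tumour order, Rbl2, the remaining called genes of the partner and Cdkn2a-locus lists, and Perp against normal gland were named after their values were seen. Alternatives were the filter, probe set rule, normalisation, variance trend, array weights, arrays in the fit, replicate block, age and each array left out. Array number limits the precision. The labels give each array its own mouse. Gadd45a, Bax, Ddb2, Gls2, Sco2, Fdxr, Ccne2 and Trp53 were not analysed here.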

Additional observations from a re-analysis of the deposited data

Results flagged for a closer look

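A probe set outside the comparisons, 17396673, is annotated to both 4930429B21Rik and Zmat3 and was left out because it names more than 1 gene. It gave 6.02 in metastatic tumour 2 and 6.21 in non-metastatic tumour 3 on the log2 scale, above the highest normal gland at 5.89. The other metastatic tumours gave 5.89 and 5.84 and the other non-metastatic tumours 5.88 and 5.88, against 5.81 to 5.89 in the normal glands. These are the 2 tumours in which the Zmat3 probe set itself was highest. All values of this probe set lay close to the array medians, which were 5.80 to 5.94. No detection call in the sources used here says whether it was above background. Which of the named genes gave the signal was not tested.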

How the results depend on the processing

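Of 495 differences of the 9 genes under alternatives, 472 kept their direction and side of the threshold, 5 passed and 18 turned sign. With array weights, 3 genes passed in metastatic tumours against normal gland (Cdkn2a, Bbc3 and Phlda3) and 1, Phlda3, in non-metastatic tumours against normal gland. Of all 17478 genes, array weights called 3765 higher and 2733 lower in the first comparison and 3156 and 2204 in the second. Nothing particular to the 9 genes follows from these calls. Leaving out single arrays gave 0 to 1 passing genes in non-metastatic tumours against normal gland, Phlda3 without non-metastatic tumour 3. All turned signs came from leaving out 1 array. Between the tumour groups, such differences spanned -0.08 to 0.37 for Ccng1, -0.04 to 0.64 for Phlda3, -0.16 to 0.52 for Trp53inp1, -0.49 to 0.20 for Zmat3, -0.02 to 0.01 for Bbc3, -0.01 to 1.07 for Cdkn1a, -0.01 to 0.16 for Mdm2 and -0.10 to 0.33 for Cdkn2a. Against normal gland they spanned -0.04 to 0.55 for Zmat3 and -0.35 to 0.04 for Ccng1 in metastatic tumours, and 0.00 to 0.99 for Cdkn1a and -0.18 to 0.49 for Trp53inp1 in non-metastatic tumours.

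Over all genes, 1 passed between the tumour groups, 0 with the fit limited to these groups, 0 with age at collection as a covariate in the 6 tumours, and 0 to 40 without single arrays, 40 without non-metastatic tumour 3 (limma). In metastatic tumours against normal gland 2332 passed, 6498 with array weights and 627 to 2832 without single arrays, with 627 and 639 without metastatic tumours 1 and 3. In non-metastatic tumours against normal gland 3288 passed, 5360 with array weights, 1533 with only these groups and 1345 to 3714 without single arrays, with 1345 without normal gland 1. The cause was not tested. Same-numbered samples come from different mice and their deviations correlated between -0.28 and 0.17, so the numbers do not pair the samples. The replicate block gave 1299 and 2250 genes in these comparisons and 0 of the 9 genes. Median centring moved the median of all genes to 0.104 and 0.138 and the split of higher to lower calls to 1728 and 848 in metastatic and 2900 and 1078 in non-metastatic tumours, against 1284 and 1048 and 1959 and 1329.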
